A study of Mus musculus with 9 samples.

Results

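The Ifit genes encode interferon-induced proteins built from tetratricopeptide repeats. 5 members were followed here, Ifit1, Ifit2, Ifit3, I830012O16Rik and Gm14446, out of 23337 genes counted. The members were the rows carrying these 5 symbols, and all 5 were among the 12553 genes that passed the filter on low counts. The family was chosen by its measured levels, which were already known to be higher in EV-treated mice than in PBS mice. Both comparisons with PBS are therefore descriptions, and the members' calls and p-values in them are read as no support. I830012O16Rik and Gm14446 are older symbols for the genes now called Ifit3b and Ifit1bl1, a near-identical copy of Ifit3 and a more distant relative of Ifit1. A sixth gene of the same cluster, 2010002M12Rik (now Ifit1bl2), served as the relative outside the members.

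Transcription of this family is switched on by type I interferon, which signals through the receptor pair Ifnar1 and Ifnar2 to transcription factors that include Stat2 and Irf9. These factors bind a short promoter element, the interferon-stimulated response element. The Ifit proteins bind viral RNA and hold back its translation, and in myeloid cells the genes are widely used as a readout of interferon signalling.

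RNA was taken from CD11b+ bone marrow cells, the myeloid cells of the marrow, of male C57BL/6 mice obtained at 3 to 6 weeks of age, with 3 mice in each of 3 groups. The PBS group was given tail vein injections of 100 µl PBS on days 1, 3 and 5. The EnzR EV group (EnzR exosome in the labels) was given, on the same days, EVs carrying 10 µg of protein from CWR-R1 prostate cancer cells resistant to enzalutamide, an androgen receptor blocker. The EnzR EV + HDL NP group was given these EVs and, on days 0, 2 and 4, HDL NPs, gold-core particles with the phospholipids and apolipoprotein of high-density lipoprotein, at 1 µM by the labels and 100 µM by the published methods. Cells were collected 24 h after the last injection, and no group received HDL NPs alone. The cells are a bulk population, so fewer cells that express a gene and less RNA of that gene per cell cannot be told apart.

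The cells carried the markers of their gate. Itgam, the gene for CD11b, ranged from 1389 to 2006 CPM (counts scaled to the depth of each library, with TMM factors) over the 9 libraries, and the neutrophil gene S100a8 from 1746 to 38307 CPM. Bone marrow macrophage markers summed to 1022 to 1773 CPM in PBS and 922 to 1101 CPM in EnzR EV mice. With HDL NPs added they summed to 1075 to 1164 CPM, so this list was not low beside Itgam. The lists of other cells were low beside these. B lineage markers summed to 7.82 to 23.8 CPM over the 9 libraries, and platelet and megakaryocyte markers to 26.6 to 109.1 CPM. The 7 plasmacytoid dendritic cell markers, none of them at 0 in all libraries, summed to 33.3 to 52.8 CPM in PBS, 36.9 to 77.9 CPM in EnzR EV and 31.2 to 47.7 CPM in EnzR EV + HDL NP mice. The 8 T and NK cell markers, likewise, summed to 52.5 to 63.7, 56.4 to 80.7 and 32.8 to 60.1 CPM. Both sums were highest in EnzR EVs replicate 1, and their defining genes were near 0, with Siglech between 0.210 and 2.82 CPM and Cd3e at a median of 0 CPM. Total counts ranged from 2575776 to 18110561 per library. Rn45s, a ribosomal RNA precursor, made up 14.2% to 42.7% of 3 libraries (EnzR EVs replicates 1 and 3, PBS replicate 1) and no more than 2.87% of the others. EnzR EVs replicate 1 was the smallest library, where a floor of 3 counts equals 1.65 CPM, against 0.528 CPM or less elsewhere. Its summed neutrophil markers were also the lowest, 32378 CPM against 56605 to 146157 CPM in the other libraries, as were its summed monocyte markers, 2221 CPM against 2920 to 4250 CPM. Erythroid markers summed to 68.1 to 82.4 CPM in PBS mice, 24.9 to 65.8 CPM in EnzR EV mice and 28.4 to 82.4 CPM in EnzR EV + HDL NP mice. Of these markers, Hba-a1, Hba-a2, Hbb-b1 and Hbb-b2 were at 0 in all libraries, so the sum rests on the others. The part of these cell types in the Ifit values was not tested.

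All members lie in 1 cluster on mouse chromosome 19. In the GENCODE annotation of GRCm38, the same assembly as mm10, the 6 genes span chr19:34550694-34650009, a stretch of 99316 bases. Ifit2 (chr19:34550694-34576419), Ifit3 (chr19:34583531-34588731), I830012O16Rik (chr19:34607970-34613401) and Ifit1 (chr19:34640871-34650009) are read from the plus strand. Gm14446 (chr19:34592891-34601956) and 2010002M12Rik (chr19:34617049-34640743) are read from the minus strand. The starts of Ifit1 and 2010002M12Rik are 128 bases apart and point away from each other, so both genes share 1 promoter region. The RefSeq span of Gm14446 is longer (chr19:34592888-34662981) and runs across I830012O16Rik and Ifit1 of the opposite strand and 2010002M12Rik of the same strand. No GENCODE exon window of a member overlapped an exon of the opposite strand, but whether the counting used strand is not given in the sources used here, and a count by strand would not part Gm14446 from 2010002M12Rik in that span, so counts of Gm14446 are uncertain.

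The promoters are shown because the family is known for its response to interferon. RefSeq promoter windows (300 bases around each start, GRCm38.p6) were matched for all 5 members and searched on both strands for the core of the interferon-stimulated response element, GAAA followed by any 2 bases and a further GAAA. The motif was present in 3.44% of 32851 mouse promoter windows, and 0.225% held it at least 2 times. The capitals mark the motif, which reads as TTTC, 2 bases and TTTC on the strand shown, and each sequence is given 5′ to 3′ on the strand of its gene.
Ifit1, plus strand, chr19:34640760-34640838: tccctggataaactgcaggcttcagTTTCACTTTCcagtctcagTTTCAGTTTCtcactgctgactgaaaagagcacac
Ifit3, plus strand, chr19:34583348-34583441: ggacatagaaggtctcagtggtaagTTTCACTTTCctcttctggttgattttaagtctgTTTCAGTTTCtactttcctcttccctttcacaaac
I830012O16Rik, plus strand, chr19:34607744-34607837: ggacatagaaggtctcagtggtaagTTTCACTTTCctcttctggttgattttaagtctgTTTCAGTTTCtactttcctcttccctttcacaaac
Gm14446, minus strand, chr19:34602038-34602097: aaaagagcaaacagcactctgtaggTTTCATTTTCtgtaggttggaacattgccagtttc

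Positions are counted from the start site that each RefSeq window is placed around, which can differ from the GENCODE start given above. Ifit1 held the motif 2 times, at positions -104 and -85, and the same bases read on the other strand are the 2 motifs of 2010002M12Rik. Ifit3 (positions -156 and -122) and I830012O16Rik (positions -188 and -154) also held 2 each, and the 94 bases shown for these copies matched with 0 mismatches. Gm14446 held 1 in each of its 2 windows, at -104 and at -23. Neither of the 2 windows of Ifit2 held these letters, which says only that they are not in these windows.

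Some members cannot be counted fully apart. The coding sequences of Ifit3 and I830012O16Rik were 99.1% identical, with 11 mismatches over 1209 bases. Cut into windows of 75 bases, the read length, 41.1% of the Ifit3 exon windows also occurred in I830012O16Rik, and 35.7% of those of I830012O16Rik in Ifit3. The counts of this pair are therefore uncertain, because reads from the shared windows fit both genes. For Ifit1 the shared windows came to 5.19%, all with 2010002M12Rik, for Gm14446 to 1.92% and for Ifit2 to 0%, and the other pairs of members had coding sequences 60.6% to 77.3% identical.

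**Figure D1:**
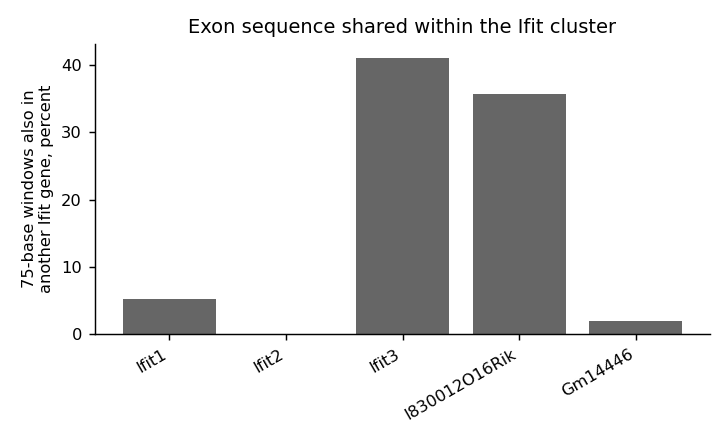
Bars give, for each of the 5 members, the percentage of all 75-base exon windows (the length of a read) that also occur in the exons of another gene of the cluster. The pair Ifit3 (41.1%) and I830012O16Rik (35.7%) stands above Ifit1 (5.19%), Gm14446 (1.92%) and Ifit2 (0%).

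Ifit1, which binds the capped ends of foreign RNA, was the member that differed most between EnzR EV and PBS mice. Its level was 24.1, 15.8 and 13.2 CPM in PBS replicates 1 to 3. It was 94.9, 62.5 and 61.0 CPM in the EnzR EV mice and 44.9, 31.5 and 39.6 CPM in the mice that also received HDL NPs. The 3 groups did not overlap, with PBS lowest, EnzR EVs highest and EnzR EVs + HDL NPs between them. Group means were 17.7 ± 5.70, 72.8 ± 19.2 and 38.7 ± 6.74 CPM (SD, n = 3).

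Ifit2, a partner of Ifit1 and Ifit3 in the same complex, followed another order. The PBS mice had 18.8, 33.8 and 32.6 CPM, the EnzR EV mice 8.23, 61.6 and 28.5 CPM, and the EnzR EV + HDL NP mice 73.4, 49.9 and 54.9 CPM. EnzR EV mice lay below, within and above the PBS range, while all 3 mice with HDL NPs were above the PBS mice. The mean was 28.4 ± 8.29 CPM with PBS, 32.8 ± 26.9 with EnzR EVs and 59.4 ± 12.4 with HDL NPs added.

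Ifit3, which stabilises Ifit1 on RNA in human cells, was at 5.10, 12.9 and 13.7 CPM in PBS mice. In EnzR EV mice it was at 3.84, 44.9 and 15.8 CPM, and in EnzR EV + HDL NP mice at 43.6, 28.7 and 31.4 CPM. The lowest and the highest value of all 9 mice were both in the EnzR EV group. I830012O16Rik, its near-identical copy, was at 2.46, 6.73 and 5.49 CPM with PBS, at 0, 24.5 and 10.4 CPM with EnzR EVs and at 23.7, 15.4 and 18.6 CPM with HDL NPs added. The 0 is 0 of 2575776 counts in EnzR EVs replicate 1, below the floor of 3 counts, which equals 1.65 CPM there. EnzR EVs replicates 2 and 3 were both above every PBS mouse for these copies.

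Gm14446, the lowest member, was at 1.58, 5.46 and 5.38 CPM in PBS mice, at 0.549, 12.6 and 4.37 CPM in EnzR EV mice and at 16.1, 8.88 and 10.1 CPM in EnzR EV + HDL NP mice. The EnzR EV values again lay below, above and within the PBS range, and the HDL NP values above it. The relative 2010002M12Rik, which shares the Ifit1 promoter region, did not separate the groups: it had 19.9, 65.3 and 54.8 CPM with PBS, 11.5, 64.5 and 36.5 CPM with EnzR EVs and 59.4, 70.2 and 52.7 CPM with HDL NPs added.

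**Figure D2:**
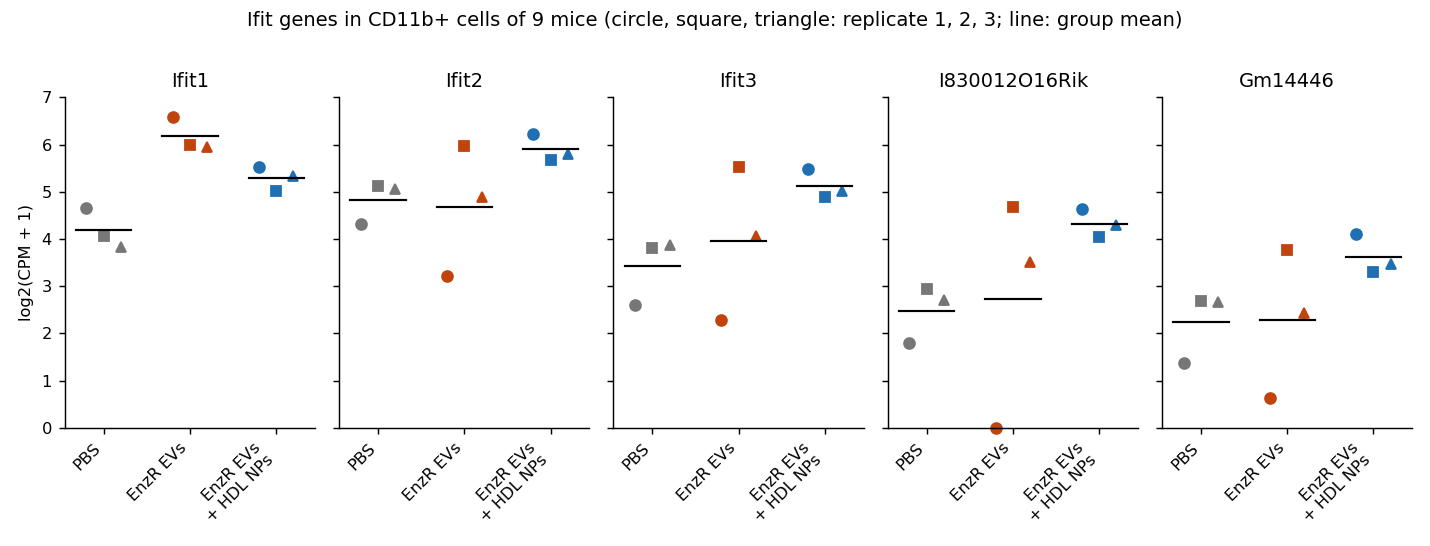
Each panel gives 1 Ifit gene as log2(CPM + 1) in each of the 9 mice, with circle, square and triangle for replicates 1, 2 and 3 and a line at the group mean on this scale. Ifit1 is higher in all 3 EnzR EV mice than in any other mouse, while the other 4 genes are lowest in EnzR EVs replicate 1 and high in EnzR EVs replicate 2 and in all 3 EnzR EV + HDL NP mice.

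Between genes, levels were compared per kilobase of exon. In PBS mice Ifit2 (7.23 ± 2.11 CPM per kb, SD, n = 3), Ifit1 (6.66 ± 2.15) and Ifit3 (6.07 ± 2.73) differed by less than their spread, and I830012O16Rik (2.45 ± 1.10) and Gm14446 (1.83 ± 0.980) were below them. In the EnzR EV group Ifit1 led at 27.4 ± 7.21 CPM per kb, followed by Ifit3 at 12.3 ± 12.1. With HDL NPs added Ifit3 was highest at 19.8 ± 4.55 CPM per kb, with Ifit2 at 15.1 ± 3.15 and Ifit1 at 14.6 ± 2.54 within their spread of each other. Ifit3 led in each of the 3 mice of that group, and Gm14446 was lowest in every library except EnzR EVs replicate 1.

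Against PBS, all 5 members had a log2 fold change above 0 in EnzR EV mice, where 46.5% of all tested genes did. Ifit1 was higher by 2.04 (SE 0.273) on the log2 scale, I830012O16Rik by 1.37 (SE 0.691), Ifit3 by 1.10 (SE 0.595), Gm14446 by 0.67 (SE 0.622) and Ifit2 by 0.28 (SE 0.490). The median over the members was 1.10, beside -0.03 over all tested genes. Ifit1 alone had groups that did not overlap, against 3.43% of tested genes that did so in this direction. By edgeR 0 members were called, as were 0% of all genes, by an unadjusted p under 0.05 1 was (Ifit1, with 1.55% of genes) and by DESeq2 1 was (Ifit1, with 0.0239%). edgeR called Ifit1 in 4 other settings, namely with the replicate number as a block (log2 fold change 2.05), with no filter on low counts (2.00), without PBS replicate 1 (2.30) and without both PBS replicate 1 and EnzR EVs replicate 1 (2.10). These contrasts chose the members, so nothing is read from their counts or from the calls of Ifit1 in any setting.

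The differences of the other 4 members from PBS rested on EnzR EVs replicate 2. Without it the log2 fold change of Ifit2 was -0.48 and that of Gm14446 -0.42, that of Ifit3 0.08 and that of I830012O16Rik 0.43, while Ifit1 stayed at 2.17. Without EnzR EVs replicate 1, in contrast, Ifit2 was at 0.66, Gm14446 at 0.99, Ifit3 at 1.49 and I830012O16Rik at 1.78. Ifit1 kept a value between 1.84 and 2.30 whichever 1 library was left out.

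Mice given both agents had all 5 members above PBS, as 48.9% of all tested genes were, and with no overlap, where 6.96% of tested genes were higher without overlap. I830012O16Rik was higher by 1.91 (SE 0.687) on the log2 scale, Ifit3 by 1.67 (SE 0.594), Gm14446 by 1.42 (SE 0.607), Ifit1 by 1.15 (SE 0.266) and Ifit2 by 1.05 (SE 0.489). The median was 1.42. With 1 library left out it stayed between 1.14 and 1.65. By edgeR 0 members (0% of all genes) and by DESeq2 0 (0.0398% in this direction) were called at an adjusted p under 0.05, and 4 had an unadjusted p under 0.05 by edgeR, where 1.02% of genes did so in this direction. The PBS mice are the same in both comparisons.

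**Figure D3:**
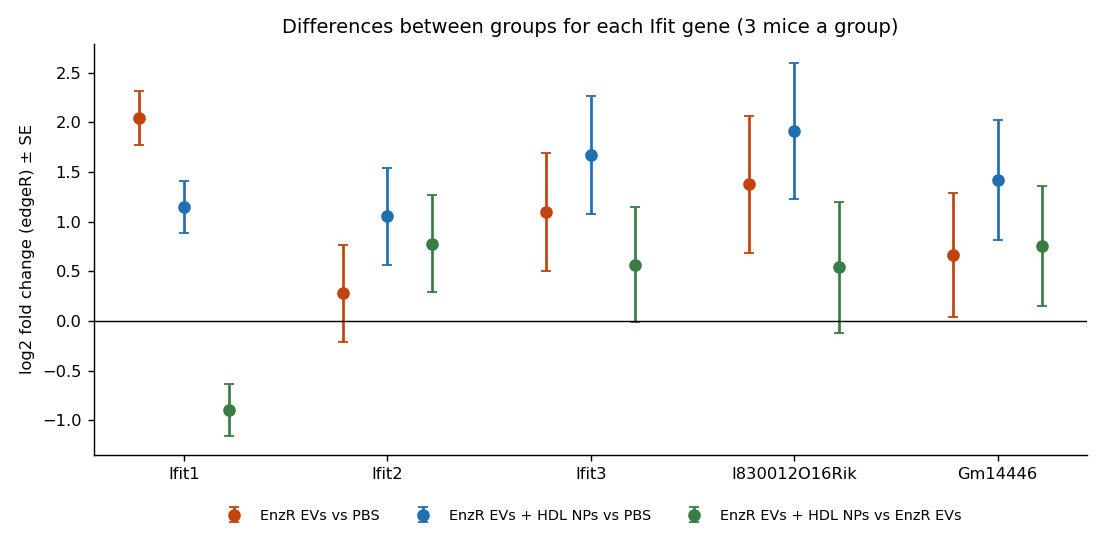
Points are log2 fold changes from edgeR with bars of 1 SE for each Ifit gene in 3 comparisons, with 3 mice a group. Ifit1 has its highest value for EnzR EVs against PBS (2.04) and is the 1 gene below 0 (-0.90) when HDL NPs were added to EnzR EVs, while the other 4 genes have their highest value for EnzR EVs + HDL NPs against PBS.

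The comparison of EnzR EV + HDL NP mice with EnzR EV mice asks whether the nanoparticles change the response to EVs. It shares the EnzR EV mice with a contrast that chose the members, so its p-values are not independent of that choice and are read as no support. Ifit1 was lower with HDL NPs, by -0.90 on the log2 scale (SE 0.262, 95% interval -1.48 to -0.32), a 1.86-fold difference in which all 3 mice lay below all 3 EnzR EV mice. This did not pass edgeR's quasi-likelihood test after adjustment over all genes (adjusted p = 0.461), the exact permutation p was 0.10, the smallest that 3 against 3 can give, and 8.58% of all tested genes were lower without overlap. The unadjusted p of Ifit1 ranked 51 of 12553.

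The other 4 members had values on the other side of 0, as did 52.8% of all tested genes, with intervals that included 0. Ifit2 was higher by 0.78 (SE 0.488, 95% interval -0.30 to 1.86, edgeR adjusted p = 0.504). Gm14446 was higher by 0.75 (95% interval -0.58 to 2.09, edgeR adjusted p = 0.575). Ifit3 was higher by 0.57 (-0.71 to 1.85, edgeR adjusted p = 0.654) and I830012O16Rik by 0.54 (-0.92 to 2.00, edgeR adjusted p = 0.706). Their groups overlapped, with exact permutation p between 0.3 and 0.4. The median over the members was 0.57. In all, edgeR called 0 of 5 members (0% of all genes), DESeq2 called 0 (0.00797% of all genes in the lower direction), and an unadjusted p under 0.05 was seen for 1, Ifit1, where 6.97% of all genes had one in the lower direction. Without EnzR EVs replicate 2 the median was 1.53, and without EnzR EVs replicate 1 it was 0.16.

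Ifit1 did not keep a fixed balance with the other members between libraries. The ratio of Ifit1 counts to the summed counts of the other 4 members, which needs no scaling between libraries, was 0.862, 0.268 and 0.231 in PBS mice. It was 7.52, 0.436 and 1.03 in EnzR EV mice and 0.287, 0.306 and 0.345 in EnzR EV + HDL NP mice. Ifit1 made up 88.3% of the 196 family counts of EnzR EVs replicate 1, and 22.3% to 25.6% of those of the HDL NP mice. In EnzR EVs replicate 1 the other 4 members had 15 counts of Ifit2, 7 of Ifit3, 1 of Gm14446 and 0 of I830012O16Rik. At that depth the PBS mean levels would give 51.7, 19.3, 7.55 and 8.92 counts. The exact 95% Poisson upper limits, for counting error only, were 24.7 counts of Ifit2, 14.4 of Ifit3 and 5.57 of Gm14446.

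The ratio was highest in the 3 libraries richest in Rn45s. In these (14.2% to 42.7% Rn45s) it ranged from 0.862 to 7.52, and in the other 6 (0.657% to 2.87%) from 0.231 to 0.436. All mice with HDL NPs are among those 6, so this share and the group are partly tied, and the part of Rn45s content in the ratio was not tested. Among the 3 libraries rich in Rn45s, Ifit1 was at 24.1 CPM in the PBS mouse and at 61.0 and 94.9 CPM in the EnzR EV mice. Among the other 6 it was at 13.2 and 15.8 CPM with PBS, 62.5 CPM with EnzR EVs and 31.5 to 44.9 CPM with HDL NPs added. For Ifit3 the set poor in Rn45s gave 12.9 and 13.7 CPM with PBS, 44.9 with EnzR EVs and 28.7 to 43.6 with HDL NPs, while the set rich in it gave 5.10 with PBS and 3.84 and 15.8 with EnzR EVs.

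**Figure D4:**
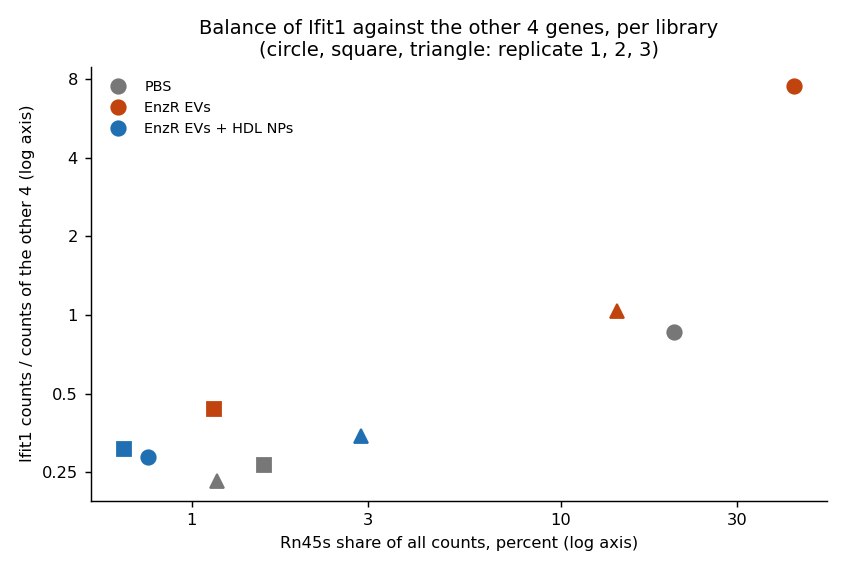
Each point is 1 library, with the Rn45s share of its counts on the x axis and the ratio of Ifit1 counts to the counts of the other 4 members on the y axis, both on log axes (circle, square and triangle for replicates 1, 2 and 3). The 3 libraries with 14.2% to 42.7% Rn45s have the 3 highest ratios (0.862 to 7.52), and the other 6 lie between 0.231 and 0.436.

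Ratios between single members were set side by side within libraries, as log2 ratios of counts with 0.5 added, for 10 pairs of members and as descriptions. Between EnzR EV + HDL NP and EnzR EV mice the ratios of Ifit1 to each of the other 4 members did not overlap and were lower with HDL NPs. The exact permutation p of each was 0.10, the smallest that 3 against 3 can give. All 4 ratios share Ifit1, and the other 4 members went together (Pearson r 0.907 to 0.994), so they are not separate observations. Between EnzR EV and PBS mice the same ratios all overlapped. For Ifit1 against Ifit3 the mean log2 ratio was 0.17 ± 0.149 with HDL NPs and 2.32 ± 2.05 with EnzR EVs alone (SD, n = 3), where the single values were 4.53, 0.48 and 1.94. Ifit3 against Gm14446 was also lower with HDL NPs (1.59 ± 0.134 against 2.00 ± 0.281, no overlap). Ifit2 against Ifit3 was the same with HDL NPs (0.79 ± 0.030) and with EnzR EVs alone (0.78 ± 0.300) within that spread, and it was 1.50 ± 0.327 with PBS.

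Across the 9 libraries the log2 CPM values of Ifit2, Ifit3, I830012O16Rik and Gm14446 went together, with Pearson r between 0.907 and 0.994 over their pairs. Those of Ifit1 with the same 4 genes lay between -0.23 and 0.04. Without EnzR EVs replicate 1, over 8 libraries, the values were 0.429 to 0.684 for Ifit1 and 0.942 to 0.988 among the others. These correlations share libraries, depth and treatment groups and are given as descriptions.

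The genes most like the family were found by the Pearson r of each gene with the mean standardised profile of the 5 members, among 7776 genes with a mean of at least 10 CPM. The first 10 were Dtx3l (r = 0.994), Usp18 (0.989), Zbp1 (0.987), Irf7 (0.982), Ddx58 (0.981), Rtp4 (0.980), Parp12 (0.980), Irgm1 (0.975), Oasl1 (0.972) and Trim21 (0.971), all over 9 libraries. 8 of them are on the interferon pathway lists described next, Parp12 and Trim21 being the others. Usp18 removes the ubiquitin-like Isg15 from proteins and dampens the interferon receptor. Its level was 14.0 ± 4.11 CPM with PBS, 23.1 ± 16.05 with EnzR EVs and 28.6 ± 4.38 with HDL NPs added (SD, n = 3). Irf7, the factor that amplifies interferon production, was at 56.5 ± 14.7, 79.1 ± 50.1 and 102.6 ± 13.2 CPM in the same order. The r of these 10 genes with Ifit1 alone lay between -0.05 and 0.21, and with a profile of the other 4 members between 0.914 and 0.983. Of the 10, 6 were also among the first 10 by Spearman's rho, 6 without EnzR EVs replicate 1, 1 on deviations from the group means and 0 against a profile without Ifit1.

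Genes with a profile like Ifit1 alone were led by Ifi35 (r = 0.941), an interferon-induced gene. Of the first 10, 2 are on the interferon pathway lists, Ifi35 and, behind 3 genes that are not, Bst2 (r = 0.912), which encodes the virus-tethering protein tetherin. The other 8, led by Ppp2r3c (r = 0.922) and Zbtb40 (r = 0.922), are not. The r of Ifi35 and Bst2 with the family profile was 0.32 and 0.07. Ifi35 was at 27.4 ± 0.829 CPM with PBS, 37.7 ± 1.03 with EnzR EVs and 34.3 ± 1.82 with HDL NPs added (SD, n = 3). Ifi35 was picked by its r with Ifit1 in these same libraries, so sharing the order of groups of Ifit1 is no separate result. Bst2 was at 11.3 ± 1.44, 18.7 ± 1.26 and 13.9 ± 3.45 CPM.

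**Figure D5:**
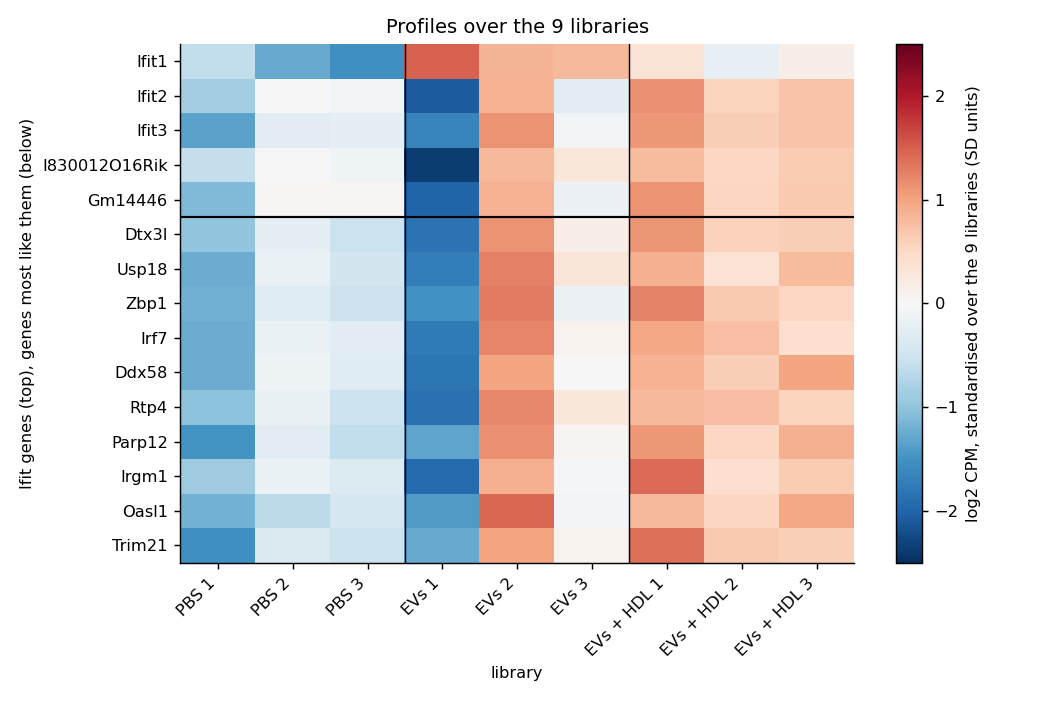
Colours give log2 CPM standardised over the 9 libraries (SD units) for the 5 Ifit genes, above the line, and the 10 genes with the highest r with their mean profile (0.971 to 0.994), below it. The row of Ifit1 is high in all 3 EnzR EV libraries, while the other Ifit genes and the 10 genes are lowest or near lowest in EnzR EVs replicate 1.

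The rest of the interferon pathway was followed through 7 written lists with 84 tested genes, which leave the Ifit genes out. The lists were chosen with earlier results of these data known. Their counts and p-values are therefore descriptions and are read as no support. The ligands were hardly present: of 18 interferon genes in the counts, Ifng and Ifnk passed the filter on low counts, and the other 16 had 3 counts in all 9 libraries together. Ifng was at 0.518 ± 0.294, 0.719 ± 0.333 and 0.620 ± 0.347 CPM in PBS, EnzR EV and EnzR EV + HDL NP mice (SD, n = 3), and Ifnk at 1.23 ± 0.511, 0.455 ± 0.513 and 1.19 ± 0.512 CPM, with log2 fold changes against PBS of -0.98 and -0.13. In EnzR EVs replicate 1 Ifnk was at 0 CPM and Ifng at 1.10 CPM, both below the floor of 3 counts, which equals 1.65 CPM there. Of the receptor genes, Ifnar1 was at 112.0 ± 2.89, 119.0 ± 15.7 and 110.0 ± 6.96 CPM and Ifnar2 at 115.2 ± 2.75, 113.1 ± 6.69 and 116.5 ± 9.95 CPM in the same order. The receptor genes for type II interferon varied more: Ifngr1 was at 216.0 ± 19.04, 266.3 ± 113.5 and 189.3 ± 26.3 CPM, with 397.3 CPM in EnzR EVs replicate 1, and Ifngr2 at 160.9 ± 6.85, 179.5 ± 31.4 and 144.5 ± 20.1 CPM. None of the 4 receptor genes was called by edgeR or DESeq2 or had an unadjusted p under 0.05 in any comparison.

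Among the 7 JAK-STAT transducers, which carry the signal from receptor to promoter, Stat2 and Irf9 were both higher in EnzR EV + HDL NP than in PBS mice without overlap. So were 6.96% of all genes, and Jak1, Jak2, Tyk2 and Stat3 overlapped. Stat2 was at 45.1 ± 5.53 CPM with PBS, 51.1 ± 13.9 with EnzR EVs and 74.7 ± 10.3 with HDL NPs added (SD, n = 3), and Irf9 at 76.3 ± 16.6, 86.6 ± 42.9 and 122.2 ± 18.2. Their log2 fold changes against PBS were 0.72 and 0.68 with HDL NPs and 0.20 for both with EnzR EVs alone, and by edgeR neither passed adjustment. Of the 10 tested sensors and adaptors of nucleic acids, 6 were above PBS with EnzR EVs (median 0.25) and 7 with HDL NPs added (median 0.26). Zbp1 had the highest value in both (0.94 and 1.39), and the lowest were Tlr3 (-0.34) and Mavs (-0.32). With EnzR EVs Mavs was lower than PBS without overlap, at -0.11, as 4.52% of all genes were, and with HDL NPs added 5 of the 10 were higher without overlap (6.96% of all genes). Of the 6 interferon regulatory factors, 4 were above PBS with EnzR EVs (median 0.04) and 3 with HDL NPs added (median 0.06). Irf7 was highest in both (0.51 and 0.85), with EnzR EVs Irf3 was higher (0.08, 3.43% of all genes) and Irf5 lower (-0.40, 4.52% of all genes) without overlap, with HDL NPs added Irf1 (0.69) and Irf7 were higher without overlap (6.96% of all genes), and Irf8 was lowest with HDL NPs added (-0.44). Of the 6 feedback inhibitors, 3 and 5 were above PBS (medians 0.30 and 0.12), led by Usp18 (0.80 and 1.02), with Ptpn6 (-0.29) and Socs1 (-0.10) at the low end. Without overlap, Socs3 was higher with EnzR EVs (0.69, 3.43% of all genes) and Usp18 with HDL NPs added (6.96% of all genes). By edgeR and by DESeq2 0 genes of these lists were called.

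The longest list held 49 other antiviral interferon-stimulated genes. Against PBS, 41 had a log2 fold change above 0 with EnzR EVs (46.5% of all genes) and 6 had no overlap (3.43% of all genes), with a median of 0.46. With HDL NPs added 49 of 49 were above 0 (48.9% of all genes) and 40 had no overlap (6.96% of all genes), with a median of 0.82. All genes of the list were measured in the same mice, so these counts are not of separate observations, and nothing is read from them. By edgeR 0 of these genes were called in each comparison, 14 and 29 were higher at an unadjusted p under 0.05 (1.55% and 1.02% of all genes), and DESeq2 called 1 in each (0.0239% and 0.0398% of all genes), Rsad2, the gene of the antiviral enzyme viperin. Rsad2 was at 66.2 ± 6.16, 142.6 ± 36.4 and 131.4 ± 21.5 CPM in PBS, EnzR EV and EnzR EV + HDL NP mice (SD, n = 3).

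Between EnzR EV + HDL NP and EnzR EV mice 35 of the 49 were higher (52.8% of all genes) and 14 lower, with a median of 0.37. By edgeR and by DESeq2 0 were called, and an unadjusted p under 0.05 was found for 4 higher (3.58% of all genes) and 1 lower (6.97%). The range ran from Mx2, a GTPase that blocks viruses, at 1.08 (SE 0.433, edgeR adjusted p = 0.461) to Ifitm1, a membrane protein that hinders viral entry, at -1.02 (SE 0.391, edgeR adjusted p = 0.461). Ifit1 at -0.90 was below every one of these genes except Ifitm1. Mx2 was at 2.99, 5.29 and 4.92 CPM in PBS mice, at 0.549, 5.64 and 3.31 CPM in EnzR EV mice and at 9.63, 6.80 and 7.82 CPM with HDL NPs added, lowest in EnzR EVs replicate 1 as were the Ifit genes other than Ifit1. The 0.549 CPM is 1 count, below the floor of 3 counts, which equals 1.65 CPM in that library.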

How the data were processed

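Total RNA (200 ng per library, rRNA-depleted, single-end reads of 75 bases) was sequenced for 9 mice, 1 library each. The authors deposited raw counts per gene, made with cutadapt 1.13, STAR and HTSeq 0.6.1p1 per the labels on mm10 with the UCSC annotation; the methods describe a filter on poor-quality and rRNA reads, although Rn45s counts remain, and the strand setting of the counting is not given in the sources used here. Groups came from the sample titles.

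All 9 libraries were fitted together in R 4.3.3 with edgeR 4.0.16 (TMM, the default filter on low counts, robust quasi-likelihood fit) and adjusted by Benjamini-Hochberg over 12553 genes, with a threshold of 0.05. DESeq2 1.42.0 and limma 3.58.1 were alternatives. CPM used TMM library sizes, and log2 CPM a prior count of 2. Exact permutation tests were two-sided. Per-kilobase levels used exon unions of GENCODE M21, which also gave coordinates, shared windows and coding sequence identity (Biopython 1.88). The members and lists were chosen with earlier results of these data known. Named genes were the members, their relative, the 10 most alike, and receptors, transducers and extremes of the lists (1 gene is not reported here); Ifi35, Bst2, Rsad2, Usp18 and Irf7 were described after their values were seen. The fits were tested on simulated data. Total counts ranged from 2575776 to 18110561; floors and Poisson limits cover counting error only. The closest pair of libraries (PBS replicates 2 and 3) was no duplicate, with 4.48 as its chi-square per gene.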

Additional observations from a re-analysis of the deposited data

How the results depend on the processing

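The members' log2 fold changes kept their direction under the other tests, normalizations, filters and gene sets tried, with 2 kinds of exception. Leaving out EnzR EVs replicate 2 turned Ifit2 (-0.48) and Gm14446 (-0.42) below PBS, and requiring 10 counts in every library removed Ifit3, I830012O16Rik and Gm14446, so that the median over Ifit1 and Ifit2 for EnzR EVs + HDL NPs against EnzR EVs was -0.05. No setting called a member in that last comparison. Counts of genes called moved from 0: for EnzR EVs against PBS to 8 with DESeq2, 1 with no filter on low counts, 5 when EnzR EVs replicate 1 and PBS replicate 1 were both left out, and between 0 and 2 with 1 library left out (2 without PBS replicate 1). For EnzR EVs + HDL NPs against PBS DESeq2 called 7. For EnzR EVs + HDL NPs against EnzR EVs 1 was called with DESeq2, 1 with 6 libraries only, 1 with both libraries left out, and between 0 and 1 with 1 library left out (1 without PBS replicate 1). Of the other pathway genes DESeq2 called 1 in each comparison with PBS, and leaving out both libraries called 2 for EnzR EVs. The count of non-overlapping ratios between members was 12 of 30 and ranged from 12 to 19 with 1 library left out (19 without PBS replicate 1). The exact permutation p of these 12 was 0.1, the smallest that 3 against 3 can give, and 0.25 after Benjamini-Hochberg adjustment. With no 0.5 added to the counts the number was 17, as ratios with the 0 of I830012O16Rik in EnzR EVs replicate 1 then drop out. Nothing in the labels says that replicate numbers pair the mice. Over all groups the 9 same-numbered pairs of libraries deviated with r from -0.18 to 0.49, while the 3 PBS and EnzR EV pairs had 0.47, 0.49 and 0.13, and 5 of 9 libraries correlated best with their own number. With the number as a block 1 gene, Ifit1, was called for EnzR EVs against PBS, and 0 members in the other comparisons. The cause of these moves was not tested. Depth limits the low members most: in EnzR EVs replicate 1 Gm14446 rested on 1 count and I830012O16Rik on 0.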
